A study of Mus musculus with 6 samples.

Results

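Gapdh, Actb, Actg1, Hprt, Tbp, Ppia, Ywhaz and B2m are genes that laboratories commonly use as internal references in quantitative PCR, and their levels were compared between CAD cells in which circGigyf2 had been targeted and control CAD cells. The 8 genes were taken by symbol from a table of 24318 genes. CAD is a mouse neuronal line of catecholaminergic type. Cells labelled si circGIGYF2 had received an siRNA against circGigyf2, a circular RNA made from exons of Gigyf2, and are called siCircGigyf2 here. Cells labelled si NC had received a control siRNA and are called siNC, and each group held 3 RNA-seq libraries, made from total RNA after removal of ribosomal RNA. No label gives an siRNA sequence, a dose, a time after transfection or separate cultures, so each p-value covers no more than the spread among these libraries, which may be technical.

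In quantitative PCR the amount of a transcript is read as a ratio to a reference transcript of the same sample, so a reference that itself moves between conditions shifts every ratio taken to it. Reference genes are therefore taken from unrelated processes, on the premise that they will not all move together. Per the labels' protocol, the PCR assays of this study used Actin or Gapdh as the reference. In these 6 libraries Gapdh, Ppia and Actb were higher after siCircGigyf2 and Ywhaz was lower, the call of Actb being lost under several other settings. Differences of Actg1, Hprt, Tbp and B2m did not pass the test. All values are FPKM, sequenced fragments per unit length of transcript and per library size, and describe RNA relative to the rest of a library. In bulk samples a change in cell composition and a change in RNA per cell cannot be told apart.

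Sums of FPKM ran from 604881 to 624645 in siCircGigyf2 and from 578627 to 601552 in siNC. The 8 genes made up 1.87% to 1.95% of these sums in siCircGigyf2 and 1.65% to 1.67% in siNC. The number of fragments was not given, and depth relative to siNC replicate 1 was read from steps between low values. It was 0.833, 0.923 and 0.808 in siCircGigyf2 and 1, 0.988 and 0.943 in siNC. Every siCircGigyf2 library was thus shallower than every siNC library, and depth cannot be told apart from treatment. Of 12 catecholaminergic and neuronal markers 11 reached the filter, led by Hand2 and Tubb3. Among these 3 were higher and 2 lower (45.5%, against 38.2% of all genes). The 1 below the filter was Ddc, at 0.314 FPKM in siCircGigyf2 and 0.351 FPKM in siNC. In the same order Dbh was at 1.14 and 1.77 FPKM and Slc18a2 at 2.56 and 2.89 FPKM. Th, the enzyme that starts catecholamine synthesis, was at only 3.28 ± 0.474 (SD, n = 3) and 4.24 ± 0.662 FPKM. The summed level of 4 astrocyte markers did not exceed 0.0676 FPKM in any library, with Aqp4, Slc1a3 and Aldh1l1 listed at 0 in all 6. The sums stayed at or below 0.304 FPKM for 4 microglia and blood markers and 1.19 FPKM for 4 oligodendrocyte markers. Of 6 markers of fibroblasts, muscle and endothelium only 2, Col1a1 and Pecam1, reached the filter. The 6 summed to 7.91 to 8.77 FPKM in siCircGigyf2 and 6.97 to 8.17 FPKM in siNC. Most of this was the endothelial marker Pecam1, at 6.58 and 6.48 FPKM, which was not called (0.017, limma adjusted p = 0.879). Col1a1 rose by 0.36 (limma adjusted p = 0.018). Any part of these markers in the results was not tested. Gigyf2, the gene that hosts the targeted circular RNA, was at 21.8, 21.1 and 21.3 FPKM in siCircGigyf2 and at 23.2, 23.1 and 23.2 FPKM in siNC. This log2 difference of -0.11 (SE 0.0329, limma adjusted p = 0.0287) concerns all Gigyf2 RNA in the table and does not measure the circle.

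Gapdh and several other abundant references have many near-identical processed pseudogenes in the mouse genome, which matters for how fragments are assigned. Every stretch of 150 bases, the read length named in the labels, was taken from a coding transcript of each gene and sought in the transcripts of all other genes of GENCODE M21 (build GRCm38). For Gapdh 81.57% of the stretches also occurred exactly in other genes, 48 in all. The share was 46.78% for Actg1, 34.67% for Ppia and 22.3% for Ywhaz. No such stretch was found for Actb, Hprt, Tbp or B2m, and the 8 genes shared none with each other, Actb and Actg1 included. Shown here is a stretch of the Gapdh coding sequence, bases 830 to 979 of its transcript, that is present letter for letter in 27 other genes:

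Gapdh, bases 830 to 979: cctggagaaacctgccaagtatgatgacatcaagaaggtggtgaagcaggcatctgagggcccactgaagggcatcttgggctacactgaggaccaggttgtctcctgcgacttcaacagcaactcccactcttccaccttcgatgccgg

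How the authors' quantifier divided such fragments is not given in the sources used here, so the levels of Gapdh, Actg1, Ppia and Ywhaz are uncertain in that respect. The table had a row for 1 of the 48 genes that share stretches with Gapdh, Gm12070, looked up after the Gapdh values were seen. Gm12070 was listed at 23.5 ± 3.33 and 18.2 ± 0.874 FPKM (SD, n = 3), far below Gapdh, with a log2 difference of 0.35 (SE 0.0846, limma adjusted p = 0.0111).

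RefSeq promoters (build GRCm38.p6, 250 bases before to 50 after the start) were found for 6 of the 8 genes. Printed are those of Gapdh and Ppia, both of which rose, and of Hprt and Tbp, whose group means lay closest. They lie at chr6:125165724-125166023 on the minus strand for Gapdh, chr11:6415617-6415916 on the plus strand for Ppia, chrX:52987828-52988127 on the plus strand for Hprt and chr17:15499638-15499937 on the plus strand for Tbp. Capitals mark matches on either strand, none overlapping, to the TATA box sought as TATAAA, the CCAAT box sought by its own letters, the GC box sought as GGGCGG and the core of the hypoxia response element sought as ACGTG.

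Gapdh promoter: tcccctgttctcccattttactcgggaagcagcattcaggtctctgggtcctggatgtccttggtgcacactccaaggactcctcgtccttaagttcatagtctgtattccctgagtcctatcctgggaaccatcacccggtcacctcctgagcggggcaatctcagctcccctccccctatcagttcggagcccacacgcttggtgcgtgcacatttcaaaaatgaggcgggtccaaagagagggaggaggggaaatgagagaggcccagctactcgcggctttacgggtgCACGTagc
Ppia promoter: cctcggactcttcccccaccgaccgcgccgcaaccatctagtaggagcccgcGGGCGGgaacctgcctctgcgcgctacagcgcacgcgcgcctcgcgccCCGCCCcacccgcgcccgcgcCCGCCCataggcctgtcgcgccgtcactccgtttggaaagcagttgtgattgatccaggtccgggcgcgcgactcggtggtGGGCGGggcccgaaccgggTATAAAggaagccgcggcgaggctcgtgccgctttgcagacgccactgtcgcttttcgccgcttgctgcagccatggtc
Hprt promoter: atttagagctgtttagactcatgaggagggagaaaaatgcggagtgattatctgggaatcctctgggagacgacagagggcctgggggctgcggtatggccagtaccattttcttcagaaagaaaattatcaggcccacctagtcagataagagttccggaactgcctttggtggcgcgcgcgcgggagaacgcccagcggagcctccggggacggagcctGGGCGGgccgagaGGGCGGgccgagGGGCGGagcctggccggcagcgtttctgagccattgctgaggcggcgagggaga
Tbp promoter: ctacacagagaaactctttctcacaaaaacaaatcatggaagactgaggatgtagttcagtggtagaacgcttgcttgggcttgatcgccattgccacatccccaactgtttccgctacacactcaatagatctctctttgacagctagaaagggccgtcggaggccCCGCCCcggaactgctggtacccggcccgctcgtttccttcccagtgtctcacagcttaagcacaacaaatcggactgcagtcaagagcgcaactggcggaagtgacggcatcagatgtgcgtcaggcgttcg

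The GC box occurred 4 times in the Ppia window, 3 times in Hprt, 1 time in Tbp and 0 times in Gapdh, and was held by 35.66% of 32851 promoters of this length. TATAAA was in the Ppia window and not in those of Gapdh, Hprt or Tbp, against 13.62% of all promoters. ACGTG was in the Gapdh window alone of these 4, against 19.62% of all promoters. CCAAT was in none of the 4, against 37.41%. Gapdh and Ppia thus had no motif of this set in common. Of the windows not printed, that of B2m held TATAAA and CCAAT 1 time each. That of Actg1 held ACGTG 2 times, the GC box 6 times and CCAAT 1 time. Neither B2m nor Actg1 passed the test in FPKM as deposited. The CArG box of serum response factor, sought as CCWWWWWWGG with W for A or T, was in the Actg1 window and in 1.629% of all promoters. No promoter entry was found for Actb or Ywhaz.

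In order of level the 8 genes ran from Gapdh through Ppia, Actb, Actg1, Ywhaz, B2m and Tbp to Hprt. FPKM is scaled for transcript length, and no neighbours in this order overlapped in either group. Gapdh ranked 8 among the 11420 genes tested and Hprt ranked 3178. Tested genes had a mean of at least 1 FPKM, and all 8 references passed that filter. On log2(FPKM + 1), with limma and Benjamini-Hochberg adjustment over all 11420 genes, 4 of the 8 (50%) passed an adjusted p of 0.05, against 38.2% of all genes tested. Of these 3 were higher in siCircGigyf2, against 19.5% of all genes, and 1 was lower, against 18.7%. Groups did not overlap for 5 of the 8, against 51.0% of all genes. Among the 748 genes with a mean of at least 100 FPKM 52.4% passed, 265 higher and 127 lower, with a median log2 difference of 0.059. Of the 6 references at that level 4 passed. These shares are near the background, and nothing is read from them about the references as a class.

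**Figure D1:**
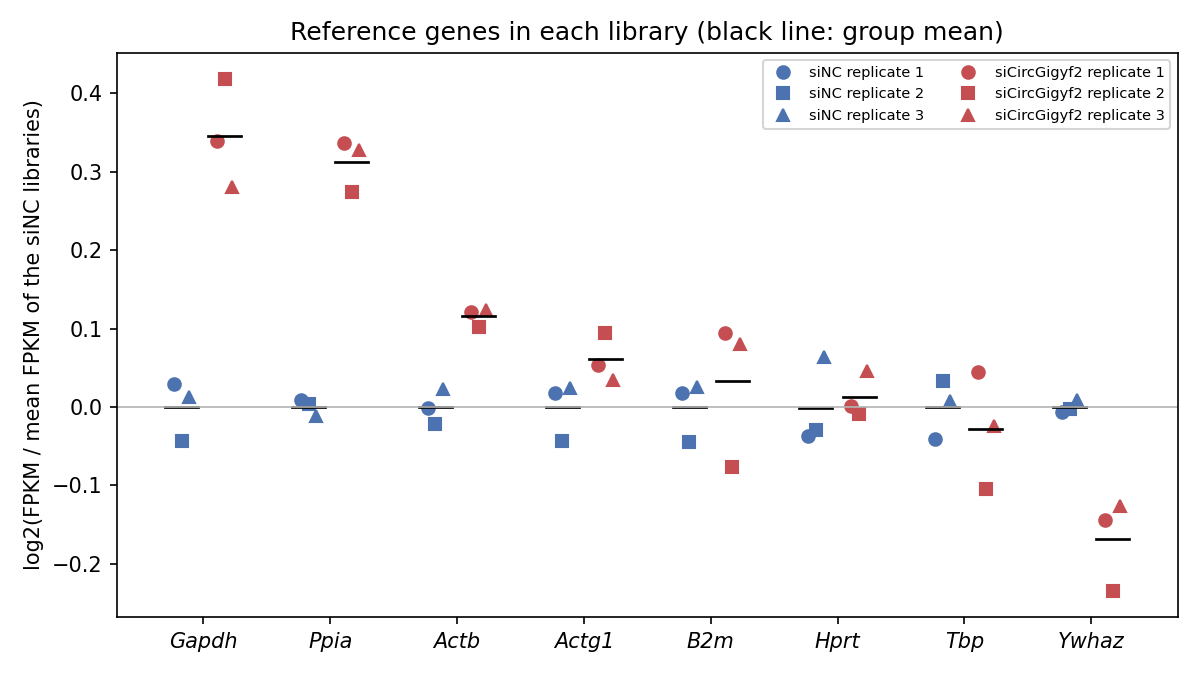
Each reference gene in each library, as log2 of its FPKM over the mean FPKM of the 3 siNC libraries (y axis), with genes on the x axis, symbols for replicates and black lines for group means. Gapdh and Ppia are set off by more than the spread of either group, Actb by a smaller step, and Ywhaz lies below its controls, while Hprt, Tbp and B2m overlap.

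Gapdh, the glycolytic enzyme that oxidises glyceraldehyde 3-phosphate, was at 5020.2, 5305 and 4821 FPKM in siCircGigyf2 and at 4049, 3853 and 4006 FPKM in siNC. All 3 siCircGigyf2 libraries were above all 3 siNC libraries, and the means were 5049 ± 244 and 3969 ± 103 FPKM (SD, n = 3). The log2 difference was 0.35 (SE 0.0531, limma adjusted p = 0.00111). The size of this difference exceeded that of 90.3% of all genes tested. Leaving out any 1 library kept it between 0.31 and 0.38.

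Of 15 other tested genes of glycolysis and lactate metabolism 8 were higher and 1 lower (60% called, against 38.2% of all genes). The median log2 difference was 0.13, against 0.00035 over all genes, and stayed positive under median-of-ratios, quantile and same-total scaling. Many of these genes are abundant, and over the 748 genes of at least 100 FPKM the median was 0.059 with 52.4% called. Eno2, the neuronal enolase, rose by 0.28 (SE 0.0459, limma adjusted p = 0.00164), from 227 ± 9.64 to 276 ± 14.7 FPKM. Gpi1, the isomerase of glucose 6-phosphate, rose by 0.23 and Pfkp, a phosphofructokinase, by 0.22. The 1 that fell was Pfkm, another phosphofructokinase, with a log2 difference of -0.14 (limma adjusted p = 0.0264), named after its values were seen. Pgk1, itself used as a reference gene and also named after its values were seen, rose by 0.13 (limma adjusted p = 0.0109). The list is one chosen with earlier results known, so its direction is a description.

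Ppia, cyclophilin A, a peptidyl-prolyl isomerase, was at 2869, 2747 and 2850.4 FPKM in siCircGigyf2 and at 2286, 2277 and 2253 FPKM in siNC. The groups were well apart, at 2822 ± 65.6 and 2272 ± 16.9 FPKM (SD, n = 3). The log2 difference was 0.31 (SE 0.0396, limma adjusted p = 0.000414). The spread within groups was small for Ppia, with a pooled SD of 0.025 (log2) against a median of 0.044 over genes of at least 100 FPKM. Small scatter among replicates therefore went together with a large step between groups. Of 14 other cyclophilins tested 2 were higher and 3 lower (35.7%, against 38.2% of all genes), with a median of -0.018. Nktr, a large protein with a cyclophilin domain, rose by 0.23, and Ppib, the cyclophilin of the endoplasmic reticulum, rose by 0.21. Ppil1, a spliceosomal cyclophilin, fell, with a log2 difference of -0.36 (limma adjusted p = 0.00121), as did Ppwd1 at -0.25 and Ppid at -0.14, both named after their values were seen.

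Actb, the cytoplasmic beta actin, was at 2085, 2058 and 2089 FPKM in siCircGigyf2 and at 1916, 1888 and 1948 FPKM in siNC. The groups did not overlap, but the step was small, from 1917 ± 29.7 to 2077 ± 16.5 FPKM (SD, n = 3), a ratio of 1.08. The log2 difference was 0.12 (SE 0.0363, limma adjusted p = 0.0331). Within groups Actb varied least of the 8, with a pooled SD of 0.018. The call for Actb was near the threshold and did not hold under several other settings. It was lost without the filter on low values (adjusted p = 0.104), after quantile normalization (0.053, adjusted p = 0.0839) and with every library scaled to the same total (0.064, adjusted p = 0.0942). Leaving out 1 library also ended it, except for siCircGigyf2 replicate 2, with adjusted p-values between 0.0283 and 0.12 over the 6 fits.

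Actg1, the cytoplasmic gamma actin, was at 1087, 1118 and 1073 FPKM in siCircGigyf2 and at 1061, 1017 and 1065 FPKM in siNC. The lowest siCircGigyf2 library was just above the highest siNC library, and the log2 difference of 0.061 (SE 0.0357, limma adjusted p = 0.204) did not pass the test. Its 95% interval ran from -0.019 to 0.14. Under quantile normalization the sign turned, with Actg1 called lower at -0.084 (adjusted p = 0.0232). The difference between the 2 actins was itself not past the threshold, since Actg1 scaled to Actb gave -0.054 (limma adjusted p = 0.174). Over the 6 fits with 1 library left out the limma adjusted p ran from 0.0404 to 0.413, and 5 of the 6 gave the same outcome.

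Of 30 tested genes whose products build and bind actin filaments 14 were higher and 3 lower (56.7%, against 38.2% of all genes). The median was 0.095 and stayed positive under median-of-ratios, quantile and same-total scaling. Part of these genes reach 100 FPKM, and over all genes of at least that level the median was 0.059 with 52.4% called. Tpm4, a tropomyosin that coats filaments, rose by 0.60 (SE 0.0324, limma adjusted p = 1.12e-05), from 57.0 ± 1.59 to 86.7 ± 1.87 FPKM. Arpc5, a subunit of the Arp2/3 complex that branches filaments, rose by 0.44. Myh9, the heavy chain of non-muscle myosin IIA, fell, with a log2 difference of -0.43 (limma adjusted p = 4.11e-05). The other falls were Flna, a filamin that crosslinks filaments, at -0.30 and Arpc1b, another Arp2/3 subunit, at -0.17, both named after their values were seen.

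Ywhaz, the zeta form of the 14-3-3 adaptor proteins that bind phosphorylated partners, was at 354, 332 and 358 FPKM in siCircGigyf2 and at 389, 390.2 and 393 FPKM in siNC. Every siCircGigyf2 library was below every siNC library, and the siNC values were very tight, at 391 ± 2.12 against 348 ± 13.9 FPKM (SD, n = 3). The log2 difference was -0.17 (SE 0.0345, limma adjusted p = 0.00498), the only called fall among the 8. Of the 5 other 14-3-3 genes tested 3 fell and 1 rose (80%, against 38.2% of all genes). Ywhab fell from 109 ± 1.5 to 83.1 ± 0.483 FPKM, a log2 difference of -0.39 (SE 0.0266, limma adjusted p = 2.65e-05). Ywhag was lower at -0.17, and so was Ywhaq at -0.15, named after its values were seen, while Ywhah rose by 0.16. Ywhae, the epsilon form, was at 283 ± 4.56 and 283 ± 1.79 FPKM, a log2 difference of 0.00095 (limma adjusted p = 0.982) that was below 0 under all 3 other library scalings and reached -0.051 at most.

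Hprt, which salvages hypoxanthine and guanine for purine nucleotides, was at 25.6, 25.4 and 26.4 FPKM in siCircGigyf2 and at 24.9, 25.0 and 26.7 FPKM in siNC. The groups overlapped, and the log2 difference of 0.013 (SE 0.0388, limma adjusted p = 0.814) had a 95% interval from -0.075 to 0.10. It was the smallest of the 8, and its sign turned with the same total (-0.037) and when any 1 of siCircGigyf2 replicate 3, siNC replicate 1 or siNC replicate 2 was left out. Of 18 other genes of purine synthesis and salvage 9 were lower and 1 higher (55.6%, against 38.2% of all genes). Their median was -0.15 and stayed negative under median-of-ratios, quantile and same-total scaling. Ppat, which commits the pathway, fell from 17.8, 19.0 and 18.2 FPKM in siNC to 14.1, 13.9 and 13.9 FPKM in siCircGigyf2, a log2 difference of -0.37 (SE 0.0399, limma adjusted p = 0.000183). Paics, of the following steps, was lower at -0.30 and Impdh2, which leads to guanine nucleotides, at -0.20. Aprt, the salvage enzyme for adenine, was the 1 that rose, by 0.26, and was named after its values were seen.

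Tbp, the TATA-binding protein that seats the transcription machinery on promoters, was at 40.3, 36.4 and 38.5 FPKM in siCircGigyf2 and at 38.0, 40.0 and 39.3 FPKM in siNC. The groups overlapped, with a log2 difference of -0.027 (SE 0.0422, limma adjusted p = 0.643) and a 95% interval from -0.12 to 0.068. Without siCircGigyf2 replicate 2, its lowest library, the difference was 0.0099. Of 25 genes of the TFIID, TFIIA and TFIIB factors and TBP relatives 5 were higher and 4 lower (36%, against 38.2% of all genes). Taf13, a TFIID subunit, fell, with a log2 difference of -0.52 (SE 0.0707, limma adjusted p = 0.000592), from 9.65 ± 0.276 to 6.45 ± 0.714 FPKM. The large chain of TFIIA, Gtf2a1, was lower at -0.27, whereas the TFIID subunit Taf10 rose by 0.26. Taf5 at -0.36 and Gtf2a2 at -0.29 also fell, and Taf4b, Taf7, Taf9 and Brf2 rose by 0.11 to 0.31, all 6 named after their values were seen.

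B2m, the light chain of MHC class I molecules, was at 197, 175 and 195 FPKM in siCircGigyf2 and at 187, 179 and 188 FPKM in siNC. Replicate 2 was the lowest library of each group. The groups overlapped, with a log2 difference of 0.033 (SE 0.0467, limma adjusted p = 0.615) and a 95% interval from -0.073 to 0.14. B2m had the widest spread within groups of the 8, a pooled SD of 0.072. Without siCircGigyf2 replicate 2 the difference was 0.087 (limma adjusted p = 0.0702), and with the same total or quantile normalization it was -0.019 or -0.011. Among 19 other genes of MHC class I presentation 11 were higher and 0 lower (57.9%, against 38.2% of all genes). Their median was 0.19 and stayed positive under median-of-ratios, quantile and same-total scaling. Tapbp, tapasin, which loads peptides onto class I molecules, rose by 0.73 (SE 0.035, limma adjusted p = 7.06e-06), from 32.3 ± 0.817 to 54.4 ± 1.62 FPKM. Its relative Tapbpl rose by 0.41 and Psme1, a proteasome activator subunit, by 0.34.

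**Figure D2:**
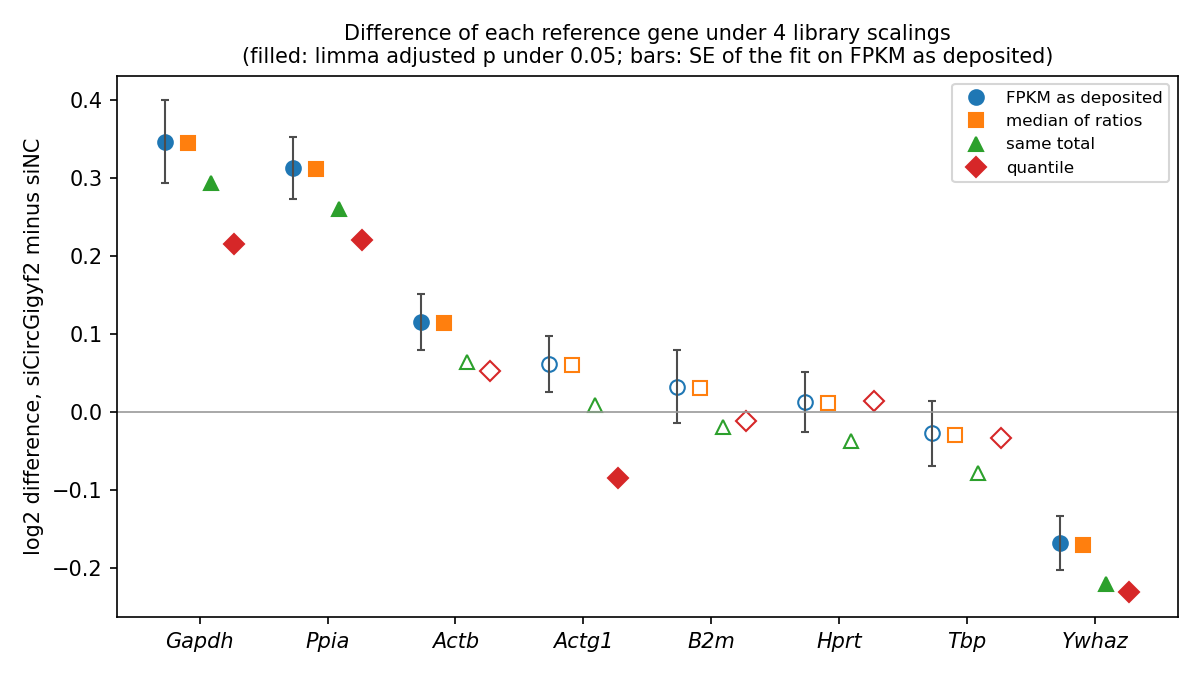
Log2 difference of each reference gene (y axis, siCircGigyf2 minus siNC) under 4 ways of scaling the libraries, with filled symbols for a limma adjusted p under 0.05 and bars for the SE of the fit on FPKM as deposited. Gapdh and Ppia stay called higher and Ywhaz called lower in all 4, Actb is called in FPKM as deposited and with median-of-ratios scaling, and Actg1 is called lower only with quantile normalization.

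Ratios between references within a library are not altered by multiplying the library by a factor, though quantile normalization does alter them. Each of the 8 was held constant in turn, all other genes were refitted against it, and the 28 pairs were read in both directions, with p-values adjusted over all genes of each fit. Of the 28 pairs 16 passed the threshold in both directions and 19 in at least 1, and for 20 the ratio did not overlap between groups. Gapdh and Ppia, which both rose, gave a ratio of Ppia to Gapdh of 0.56 in siCircGigyf2 and 0.573 in siNC, a log2 difference of -0.034 (limma adjusted p = 0.649) that became 0.022 without siCircGigyf2 replicate 2. The ratio of Ywhaz to Gapdh fell from 0.0986 to 0.0691, a log2 difference of -0.51 (SE 0.0647, limma adjusted p = 1.44e-05), the widest of the pairs. Actb to Gapdh, the 2 kinds of reference named in the PCR protocol, fell from 0.483 to 0.412, a log2 difference of -0.23 (SE 0.0625, limma adjusted p = 0.00421).

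Hprt, Tbp, B2m and Actg1 formed the largest group in which no ratio passed the threshold. Among their log2 differences the smallest was -0.018 for Hprt scaled to B2m (limma adjusted p = 0.878) and the widest 0.089 for Actg1 scaled to Tbp (limma adjusted p = 0.319), which does not show that they are equal. Between this group and Actb the results were mixed. Actb passed in neither direction with Actg1 (limma adjusted p = 0.174 and 0.305) or with B2m (limma adjusted p = 0.123 and 0.258). B2m scaled to Actb gave -0.082, with no overlap between groups. Hprt scaled to Actb passed at -0.098 (limma adjusted p = 0.0474) but Actb scaled to Hprt did not (limma adjusted p = 0.108), and the call was lost when any library was left out (adjusted p from 0.058 to 0.151). Tbp scaled to Actb passed at -0.14 (limma adjusted p = 0.0215) but Actb scaled to Tbp did not (limma adjusted p = 0.0922). That call was lost in 3 of the 6 fits with a library left out, those without siCircGigyf2 replicate 2, siCircGigyf2 replicate 3 or siNC replicate 2 (adjusted p from 0.052 to 0.0796). Ywhaz and Tbp likewise passed in only 1 direction. Tbp scaled to Ywhaz gave 0.14 (limma adjusted p = 0.0213) and Ywhaz scaled to Tbp -0.14 (limma adjusted p = 0.0571).

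**Figure D3:**
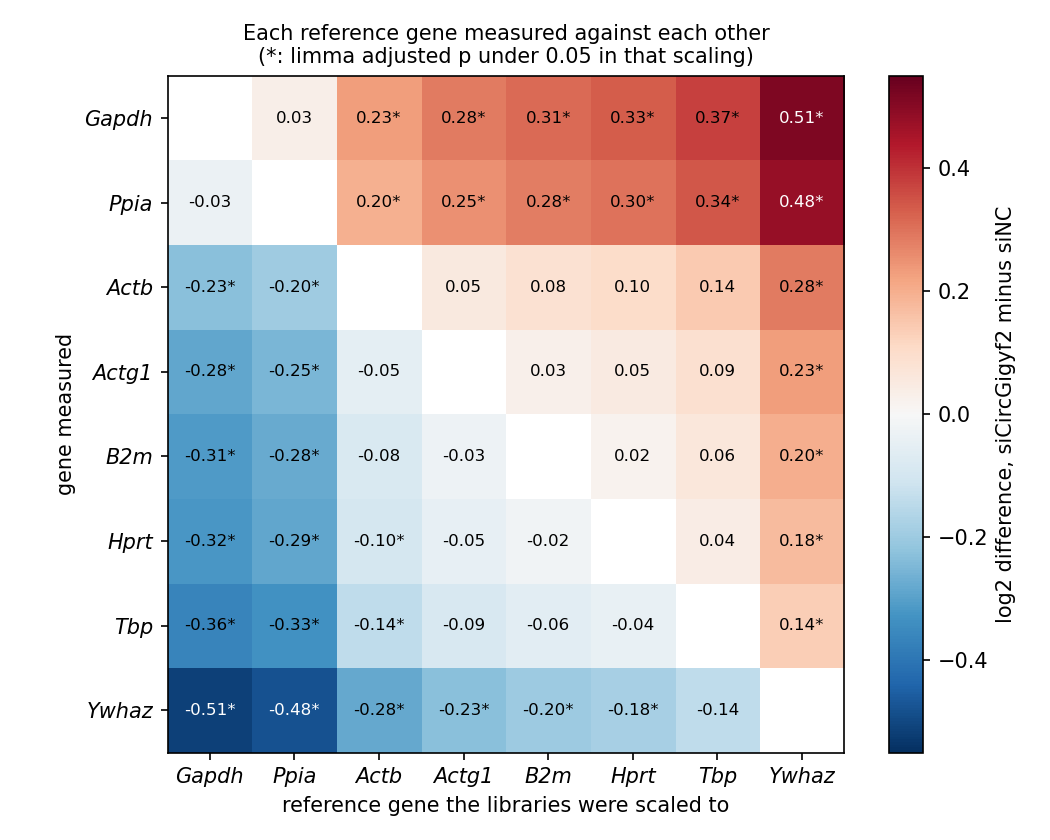
Log2 difference between groups (colour and number, siCircGigyf2 minus siNC) of the gene in each row after libraries were scaled to the gene in each column, with an asterisk for a limma adjusted p under 0.05 over all genes of that scaling. The block of Actg1, Hprt, B2m and Tbp holds no asterisk, and the corner of Ywhaz against Gapdh holds the widest values.

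Scaling to a reference shifts every gene by that reference's own difference, so the split of calls over the 11420 tested genes follows from it and is given to show its size. With FPKM as deposited 2232 genes were higher and 2135 lower. Scaled to Gapdh, 77.8% of genes were called, 182 higher and 8703 lower, with a median log2 difference of -0.31. Of the 4367 genes called in FPKM as deposited 660 were then called in the opposite direction. Scaling to Ppia gave a near-identical shape, with 76.7% called, 271 higher and 8487 lower, and 657 called in the opposite direction. Ywhaz pushed the other way, with 51.7% called, 5259 higher and 646 lower.

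Scaling to Actb called 47.2% of genes, 1056 higher and 4333 lower, although its own difference was only 0.12. Actg1 gave 37.3%, with 1360 higher and 2902 lower. Hprt came closest to an even split, at 31.8%, with 1701 higher and 1935 lower. Tbp gave 27.9% (1909 higher, 1279 lower) and B2m 24.9% (1137 higher, 1707 lower). In these 5 scalings, and with Ywhaz, no gene was called in the direction opposite to its call in FPKM as deposited. The lower totals with Tbp and B2m went with the wider scatter of these genes within groups, and the part of that scatter in them was not tested. Leaving out 1 library moved the total for B2m between 2084 and 4231.

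**Figure D4:**
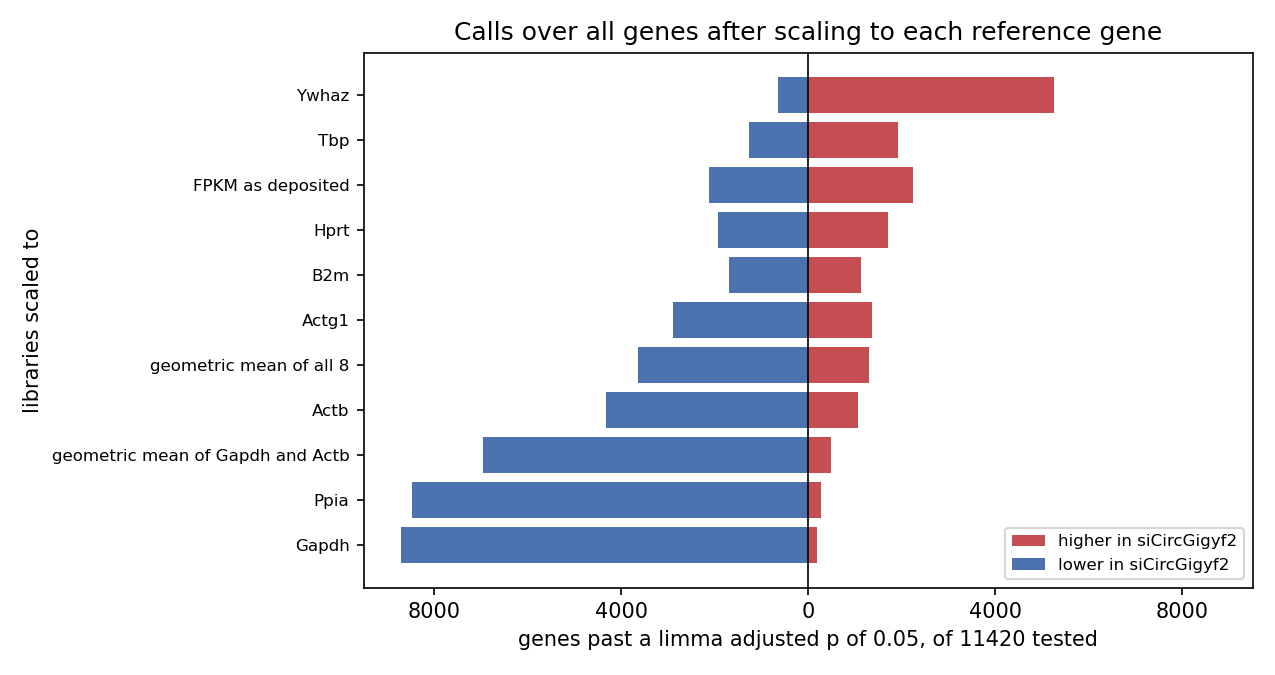
Number of genes past a limma adjusted p of 0.05 (x axis, higher to the right and lower to the left, of 11420 tested) after libraries were scaled to each reference gene or to a geometric mean of several (y axis). Bars for Gapdh and Ppia lie almost wholly on the lower side, with 8703 and 8487 genes, and that of Ywhaz on the higher side, with 5259.

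Gigyf2 itself shows what this does to 1 measurement. Its log2 difference of -0.11 in FPKM became -0.44 (SE 0.0593, limma adjusted p = 2.37e-05) when scaled to Gapdh, -0.41 when scaled to Ppia and -0.22 (limma adjusted p = 0.000865) when scaled to Actb. Scaled to Hprt it was -0.12 (limma adjusted p = 0.0926) and scaled to Tbp -0.082 (limma adjusted p = 0.328), neither past the threshold. Scaled to Ywhaz the sign turned, to 0.052 (limma adjusted p = 0.366).

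Geometric means of several references, the usual remedy for an unsteady single one, were shifted by differing amounts. The geometric mean of Gapdh and Actb, a pair added after the data were seen, was 0.23 higher in siCircGigyf2 on the log2 scale, and scaling to it called 65.3% of genes, 484 higher and 6968 lower. The geometric mean of all 8 was 0.086 higher and called 43.2%, and that of Actb and Actg1 was 0.089 higher and called 43.3%. Of the 28 pairs Hprt with Tbp (-0.0070) and Tbp with B2m (0.0027) had the smallest shifts and Gapdh with Ppia the largest (0.33). The 6 genes without Gapdh and Ppia shifted by 0.0046, a mean in which the fall of Ywhaz offset the higher values of the actins. These shifts hold for FPKM as deposited and depend on the library scaling. With the same total the differences of Hprt, Tbp and B2m were -0.037, -0.078 and -0.019, so both small-shift pairs then lay below 0.

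As normalizers the 8 were ranked in several ways, all given as descriptions. The geNorm measure M is the mean SD of a gene's log2 ratios to the other candidates, so it is low for genes that keep in step with the rest. Actb had the lowest M at 0.0963, followed by Actg1 at 0.101, Hprt at 0.102, B2m at 0.106 and Tbp at 0.115. Ppia at 0.159, Ywhaz at 0.166 and Gapdh at 0.183 were set apart from these 5. Stepwise removal took out Gapdh, Ppia, Ywhaz, Tbp, B2m and Hprt in that order and left Actb with Actg1, at an M of 0.0417. NormFinder, which adds the scatter within groups to the step between them after centring on the candidates' mean, also placed Actb first at 0.0205 and Actg1 second at 0.0338, with Ppia at 0.124, Ywhaz at 0.138 and Gapdh at 0.151 last.

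Both measures are relative to the candidates, and their order differed from that by level in FPKM. By the SD of log2(FPKM + 1) over the 6 libraries Hprt was the most constant at 0.039, then Actg1 at 0.045, Tbp at 0.053, Actb at 0.065 and B2m at 0.067, against a median of 0.10 over all genes tested. Ywhaz followed at 0.099, and Ppia at 0.17 and Gapdh at 0.20 were above that median. Over the 748 genes of at least 100 FPKM the median was 0.083, which Ywhaz, with a mean of 370 FPKM, also exceeded. By the size of the group difference Hprt took rank 1, Tbp rank 2, B2m rank 3, Actg1 rank 4 and Actb only rank 5. Actb had the lowest M and passed the test. These orders moved with the setting: over 11 settings, named with the ranks by M, ranks by difference ran from 1 to 3 for Hprt, 1 to 5 for Tbp and Actg1, 1 to 4 for B2m and 4 to 5 for Actb. Ranks by SD ran from 1 to 3 for Hprt, 1 to 4 for Actg1, 1 to 5 for Tbp and Actb and 3 to 5 for B2m. With the same total Actg1 took rank 1 on both. By scatter within groups alone the order was again different, with Actb (0.018), Ppia (0.025) and Actg1 (0.034) tightest and Gapdh (0.056), Tbp (0.057) and B2m (0.072) widest.

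**Figure D5:**
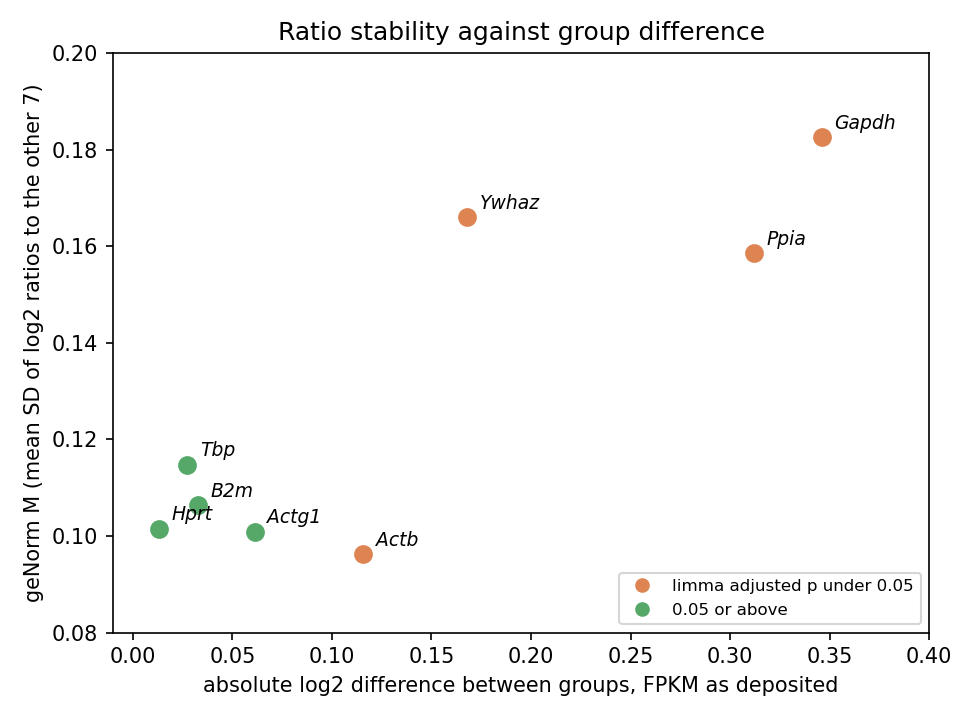
geNorm M of each reference gene (y axis, which starts above 0) against the size of its log2 difference between groups in FPKM as deposited (x axis), coloured by whether the limma adjusted p was under 0.05. Actb has the lowest M (0.0963) although it passed the test, and Ppia, Ywhaz and Gapdh are high on both axes.

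Ranks by M moved little for the last 3 genes. Over 11 settings, the main one, 4 changes of scaling or pseudocount and 6 fits each without 1 library, Gapdh, Ppia and Ywhaz always took ranks 6 to 8, and Actb took rank 1 or 2. Among these, median-of-ratios and same-total scaling multiply a library by a factor. That leaves ratios, and so M, all but unaltered, so these scalings are no check on the ranks by M. Actg1 ranged from 2 to 5, Hprt from 2 to 4, Tbp from 4 to 5 and B2m from 1 to 5. The final pair was less settled. It became Actg1 and B2m without siCircGigyf2 replicate 2, B2m and Tbp without siNC replicate 2 or without Actg1 as a candidate, and Actb and Hprt after quantile normalization. The library siCircGigyf2 replicate 2 held the highest value of its group for Gapdh and Actg1 and the lowest for the other 6 genes.

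Of 45 other reference genes in wide use 12 were higher and 9 lower (46.7%, against 38.2% of all genes), with a median of 0.017 that turned to -0.025 with quantile normalization and -0.033 with the same total. Gusb, a lysosomal glucuronidase, fell from 63.0 ± 1.23 to 48.1 ± 1.67 FPKM, a log2 difference of -0.38 (SE 0.0346, limma adjusted p = 8.02e-05). Tubb5, a beta tubulin, rose by 0.36 and Emc7, a subunit of a membrane protein insertion complex, by 0.25. Besides Ywhae, the smallest differences at 20 FPKM or more were those of Psmb2 at -0.011 and Psmb4 at 0.013, 2 proteasome subunits, the latter below 0 with quantile normalization and with the same total.

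Of the 748 genes with at least 100 FPKM, Morf4l2, a relative of a chromatin regulator, varied least over the 6 libraries, at 313, 316 and 316 FPKM in siCircGigyf2 and 313, 316 and 316 FPKM in siNC, with an SD of 0.0071 (log2). Rsl1d1 (0.015), Ywhae (0.016), Cdk4 (0.017) and Ppp1cb (0.018) came next. Every one of these 5 varied less than Hprt, the most constant of the 8, as the choice by smallest SD among many genes would favour.

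The genes whose profile lay closest to each reference were sought among 4033 genes of at least 20 FPKM, by the SD of the log2 ratio over the 6 libraries. Erp29, a chaperone of the endoplasmic reticulum, lay closest to Gapdh (0.013) and Ago2, of the microRNA silencing complex, was among the 2 closest to Ppia (0.016). Gnb1, a G protein beta subunit, was near Actb (0.011), Gtf3c4 near Actg1 (0.014), Shoc2 near Hprt (0.013), Slc6a15 near Tbp (0.015), Tmed2 near Ywhaz (0.012) and Adpgk near B2m (0.015). Closer than the genes just named were Hipk3 to Ppia (0.014), 9530068E07Rik to Actb (0.0093), Rmnd5a to Actg1 (0.012) and Atp5j2 to B2m (0.010). The second nearest were Slc30a1 for Gapdh, Nkap for Hprt, Rnf149 for Tbp and Tspan31 for Ywhaz. These distances rest on 6 libraries that share the group step and are given as descriptions.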

How the data were processed

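RNA-seq of 6 CAD libraries, 3 siCircGigyf2 and 3 siNC, was used, with groups and replicate numbers from the sample titles and treatment labels. The authors deposited 1 table of FPKM with 1 row per gene symbol. Per the labels' protocols ribosomal RNA was depleted and reads were paired, and per the submitters' processing notes the build was mm9. Aligner, quantifier, gene annotation and use of strand are not given in the sources used here. FPKM are not counts, so no count model was used, absolute depth is unknown, and relative depth was read from steps between values under 0.3 FPKM. No 2 libraries shared more than 0.0068% of their values above 0.

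The 11420 genes with a mean of at least 1 FPKM were tested on log2(FPKM + 1), a scale that understates changes of low genes, with limma 3.58.1 in R 4.3.3 (2 groups, empirical Bayes with a variance trend, two-sided, Benjamini-Hochberg over all genes, threshold 0.05). Differences are siCircGigyf2 minus siNC. For scaling to a reference, each library was divided by that gene's FPKM, or by the geometric mean of several, relative to its mean over libraries on the log scale, and the same fit was repeated. geNorm and NormFinder measures were computed on log2(FPKM + 1). Companion lists were counted, not tested. On data simulated with independent normal noise and 200 changed genes among 11420, the fit called 46.5% of those set to a fold of 1.2. It called 89.7% for a fold of 1.5 and 98.6% for a fold of 2, with 9 false calls among 164. In the real data 4367 genes were called, and the simulated libraries shared no depth or batch effect within a group. These rates therefore do not carry over to the real comparison. Sequences were read with Python 3.11.15 from GENCODE M21, using the shortest principal coding transcript of each gene, and from RefSeq promoters.

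The members, lists and tests were chosen with earlier results of these data known. Genes named are the 8 references, Gigyf2, in each companion list the 3 with the smallest p, among other references of at least 20 FPKM also the 3 with the smallest difference, the 2 nearest to each reference, and the 5 most constant of at least 100 FPKM. Marker genes come from the cell type lists, and names outside these rules are marked. Alternatives were a pseudocount of 0.1 or none, no filter or one of 5 FPKM, median-of-ratios, quantile and same-total scaling, robust empirical Bayes, a fit with no variance trend, a block for the replicate number, geometric means as reference, Actg1 left out of the ranking, and leaving out each library in turn.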

Additional observations from a re-analysis of the deposited data

How the results depend on the processing

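The calls of Gapdh, Ppia and Ywhaz kept their direction and their side of the threshold under every alternative pseudocount, filter, variance setting, block, left-out library and whole-library scaling (median of ratios, quantile, same total), at 0.21 to 0.38, 0.22 to 0.33 and -0.23 to -0.13. Actb kept its direction but was not called without a filter (0.12), with quantile normalization (0.053) or with the same total (0.064), and ranged from 0.10 to 0.13 when 1 library was left out. Under those alternatives the differences that changed sign were those of Actg1 (-0.084) and B2m (-0.011) with quantile normalization, of Hprt (-0.037) and B2m (-0.019) with the same total, of Hprt when 1 library was left out (-0.0041 to 0.045) and of Tbp likewise (-0.063 to 0.0099). The cause was not tested. With the same total, 1557 genes were called higher and 2928 lower, 34.7% higher against 51.1% in FPKM as deposited, and the median of all genes moved to -0.046. Leaving out 1 library gave 3521 to 3933 calls.

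Scaling to the geometric mean of all 8 references called 4929 genes and scaling to that of Actb and Actg1 called 4948, which is more than 1.5 times away from the totals with Gapdh, Tbp, Ppia or B2m alone. Under these 2 scalings the differences read against Gapdh alone became 0.030 and 0.027 for Actb and 0.23 and 0.22 for Ppia. Those of Ywhaz were -0.25 and -0.26. Those of Actg1 (-0.024 and -0.027), Hprt (-0.069 and -0.072) and B2m (-0.053 and -0.055) were below 0, opposite in sign to FPKM as deposited. The scaling sets these signs, since it lowers every gene by about the mean's own difference (0.086 for all 8, 0.089 for the pair). Scaled to their own mean, Actb and Actg1 must lie on opposite sides of 0. Ppia relative to Gapdh ranged from -0.074 to 0.022 when 1 library was left out.

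Replicate numbers were not taken to pair the samples, because deviations of same-numbered libraries correlated at 0.16, -0.021 and 0.0025. With the replicate block 3973 genes were called against 4367, and the calls of the 8 references did not change. Among the 7 ratios to Gapdh and the 6 others to Actb, it lost that of Hprt to Actb (adjusted p = 0.0609). With 3 libraries a group, the SDs and ranks carry wide error.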
